A study of Homo sapiens with 12 samples.

Results

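The AP-1 family is described here by 10 genes, JUN, JUNB, JUND, FOS, FOSB, FOSL1, FOSL2, BATF, BATF3 and ATF3, chosen by symbol from the 26210 gene rows of an RNA-Seq table. Each of the 10 symbols had its own row, and all 10 passed the filter on low values that left 14679 genes for testing. Expression was measured in FPKM, the number of fragments scaled for transcript length and library total, so that levels of different genes can be set beside each other. Total RNA depleted of ribosomal RNA was sequenced from 12 libraries of 6 conditions, with 2 libraries in each. Untreated L428, L1236 and KM-H2 are lines of classical Hodgkin lymphoma (cHL), whose malignant Hodgkin/Reed–Sternberg cells derive from B cells but have lost most of the B-cell programme. Untreated Namalwa, a Burkitt's lymphoma line, and untreated Reh, a B-cell precursor leukaemia line, were the controls. Reh was also treated with phorbol myristate acetate (PMA, 2 ng/ml), a potent activator of protein kinase C, and this condition is called Reh+PMA. The PMA treatments that the paper describes lasted hours rather than minutes, and the harvest time for RNA-Seq is not given in the sources used here. Each line is a single established culture standing for its disease. The cHL lines were grown in IMDM and Namalwa and Reh in RPMI, so that medium and disease cannot be told apart, and in bulk RNA more cells with a transcript and more transcript in each cell cannot be told apart either.

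AP-1 is a dimer of basic leucine zipper proteins that binds DNA. JUN proteins pair with themselves or with FOS proteins, whereas FOS proteins need a JUN partner. BATF and BATF3 also pair with JUN proteins, lack a transactivation domain of their own and can bind composite sites together with IRF4 or IRF8, and ATF3 is a stress-induced relative. FOS, FOSB, JUN and JUNB are classical early response genes, and the commonest AP-1 site was named after the phorbol ester that activates it. Abundant JUN and JUNB are a known trait of Hodgkin/Reed–Sternberg cells.

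In the control lines its summed level was low, and JUNB and JUND held most of it. In the cHL lines JUN, JUNB, BATF, BATF3 and ATF3 were high, while no FOS-type gene exceeded 5.84 FPKM in any of their libraries. In Reh+PMA, FOS, FOSB and FOSL2 were high together with JUNB and JUND, BATF rose part of the way to its cHL level, and BATF3 and ATF3 did not pass the test in either direction.

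**Figure D1:**
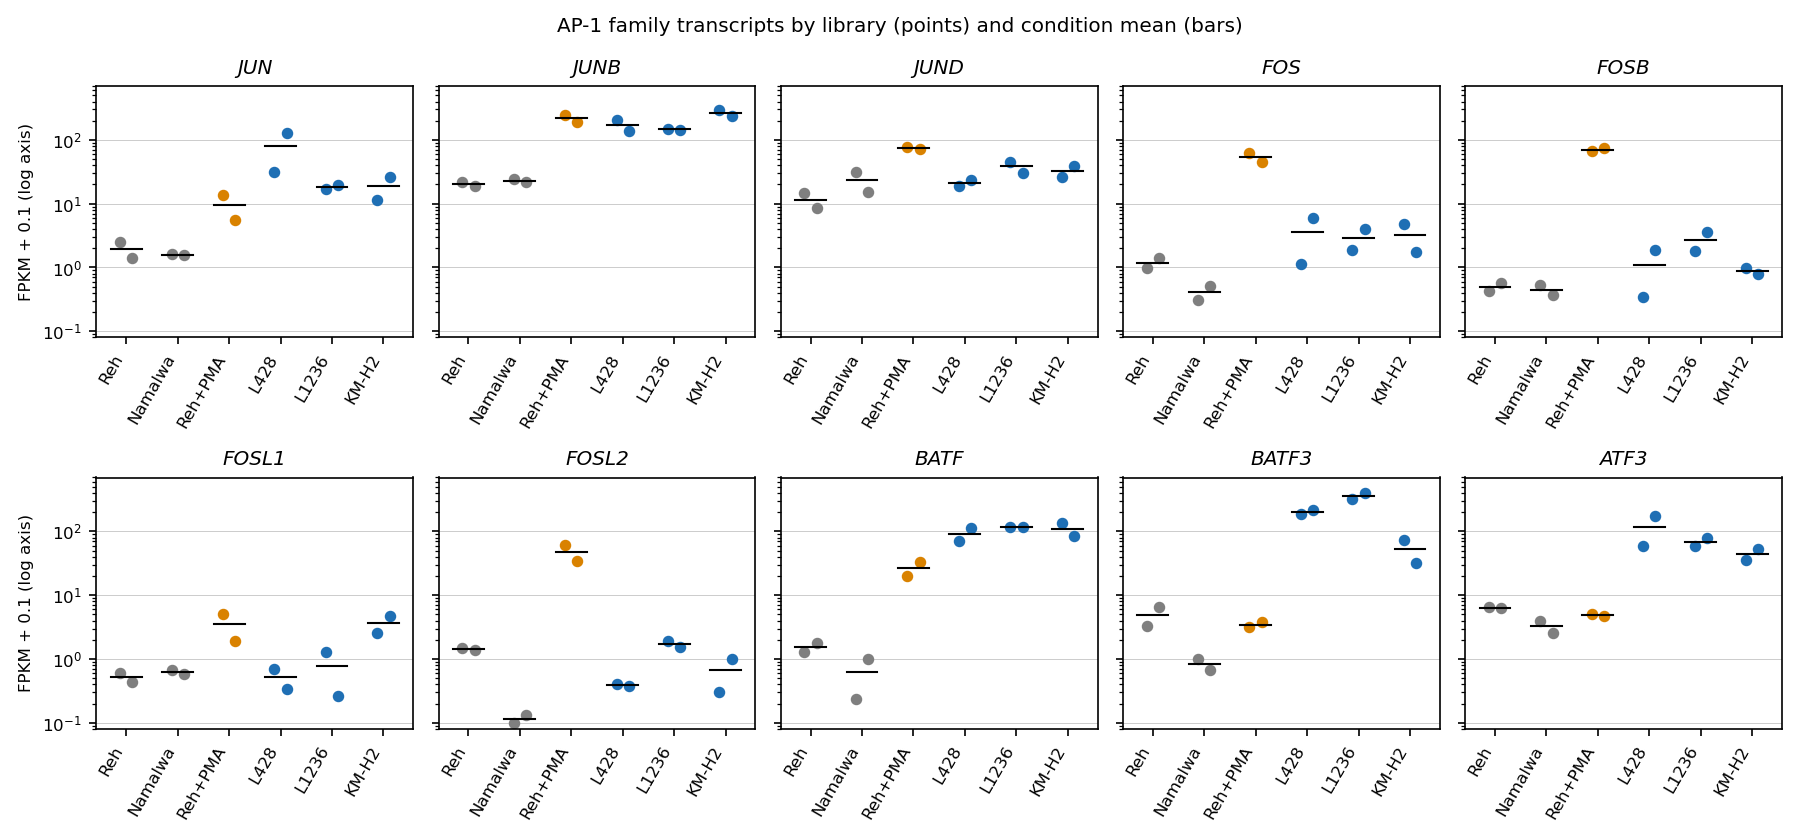
FPKM of the 10 AP-1 family genes in each library (points, with 0.1 added, on a log axis) and the mean of each condition (bars), with the untreated controls in grey, Reh+PMA in orange and the cHL lines in blue. FOS, FOSB and FOSL2 stand above all other conditions in Reh+PMA alone, BATF3 and ATF3 in the cHL lines alone, and JUNB in both.

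Marker genes set the cHL lines apart from the controls, and no marker of Burkitt's lymphoma was listed. The summed FPKM of 8 B-lineage markers was 982 to 1420 in the control libraries, 1116 to 1359 in Reh+PMA and 2.55 to 37.3 in the cHL libraries. In Reh+PMA 4 of the 8 were lower than in Reh (BLNK -4.57, CD79B -2.78, PAX5 -1.97 and EBF1 -1.90 on the log2(FPKM + 1) scale) and CD22 was higher (1.26), and 3 of 5 precursor B markers were lower (RAG1 -5.53, IGLL1 -3.20 and VPREB3 -2.48), where 11.8% of all genes were lower. TNFRSF8, which encodes the Hodgkin marker CD30, averaged 51.2 FPKM in L428, 24.8 in L1236 and 24.2 in KM-H2, and at most 0.50 in the other conditions. Of the 6 Hodgkin markers 5 were higher than in controls in L428, 5 in L1236 and 6 in KM-H2 (16.2, 15.7 and 16.8% of all genes). CSF1R, on the same list, was highest in Reh+PMA at 11.5 FPKM, against 0.354 to 1.59 in the cHL lines, and rose under PMA by 3.33. VPREB1 was listed at 0 in Reh, although DNTT (95.5 FPKM) and RAG1 (409.6 FPKM) marked it as a precursor line. Namalwa also held precursor markers, with VPREB1 at 9.63 FPKM, RAG1 at 27.5, VPREB3 at 57.3 and IGLL1 at 59.1, and DNTT listed at 0. Of these 5 markers 1 was higher in Namalwa than in Reh (VPREB1, 3.39) and 4 were lower (7.5 and 11.5% of all genes). Of the 5 T-cell markers in the table, CD3D and CD4 were higher in KM-H2 and CD4 in L1236 than in controls, and the summed T-cell level was 0.138 to 69.4 FPKM in cHL libraries and at most 0.189 in controls. Myeloid markers (5 genes) summed to 0.0736 to 7.26 FPKM in cHL libraries, 5.43 to 6.73 in Reh+PMA and 0.0865 to 32.4 in controls, epithelial and fibroblast markers (4 genes) to at most 3.67, 0.36 and 0.443, and HBB and HBA1 were listed at 0 in all libraries. Of the 2 myeloid markers tested, CD14 was higher in KM-H2 (2.57 on the log2(FPKM + 1) scale), and MPO was lower in KM-H2 and L1236 (-2.43 in both) and in Reh+PMA against Reh (-2.13), and it was listed at 0 in Namalwa. COL1A1 was higher in KM-H2 (1.36). The part of these other markers in the results was not tested. Duplicates correlated over the tested genes with r of 0.970 to 0.985 in Reh, Reh+PMA and Namalwa and of 0.906 to 0.922 in the cHL lines, against at most 0.874 between conditions. The table names the duplicates by the suffixes 0 and 1, which are kept here as library 0 and library 1. In the 3 cHL lines the libraries 1 deviated from their duplicates in the same way (r of deviations 0.30 to 0.68 between lines), and L428 library 1 had several times the JUN, FOS, FOSB and ATF3 level of L428 library 0. The paper names HiSeq and NextSeq instruments, which library ran on which is not known here, and a part of the instrument was not tested.

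The summed level of the 10 genes was 43.5 to 63.2 FPKM in the 4 control libraries, 460.1 to 558 in Reh+PMA and 482 to 802 in the 6 cHL libraries. Genes of the JUN type made up 61.6 to 90.3% of this sum in controls, 57.5 to 60.3% in Reh+PMA and 24.5 to 63.3% in the cHL lines. FOS-type genes held 33.6 to 34.8% in Reh+PMA but 0.376 to 1.62% in the cHL lines and 1.93 to 7.35% in controls. In level, however, the FOS-type sum was 2.17 to 9.025 FPKM in the cHL lines and 1.175 to 3.39 FPKM in controls, so that the smaller cHL share is a share of a larger sum. BATF and BATF3 together held 24.2 to 64.5% in the cHL lines, 4.09 to 7.90% in Reh+PMA and 1.61 to 17.8% in controls, where Reh (8.27 to 17.8%) was above Reh+PMA. JUNB was a large component everywhere, with 37.8 to 50.1% in controls, 40.9 to 43.9% in Reh+PMA and 16.9 to 50.6% in the cHL lines. These shares describe transcripts, not dimers.

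**Figure D2:**
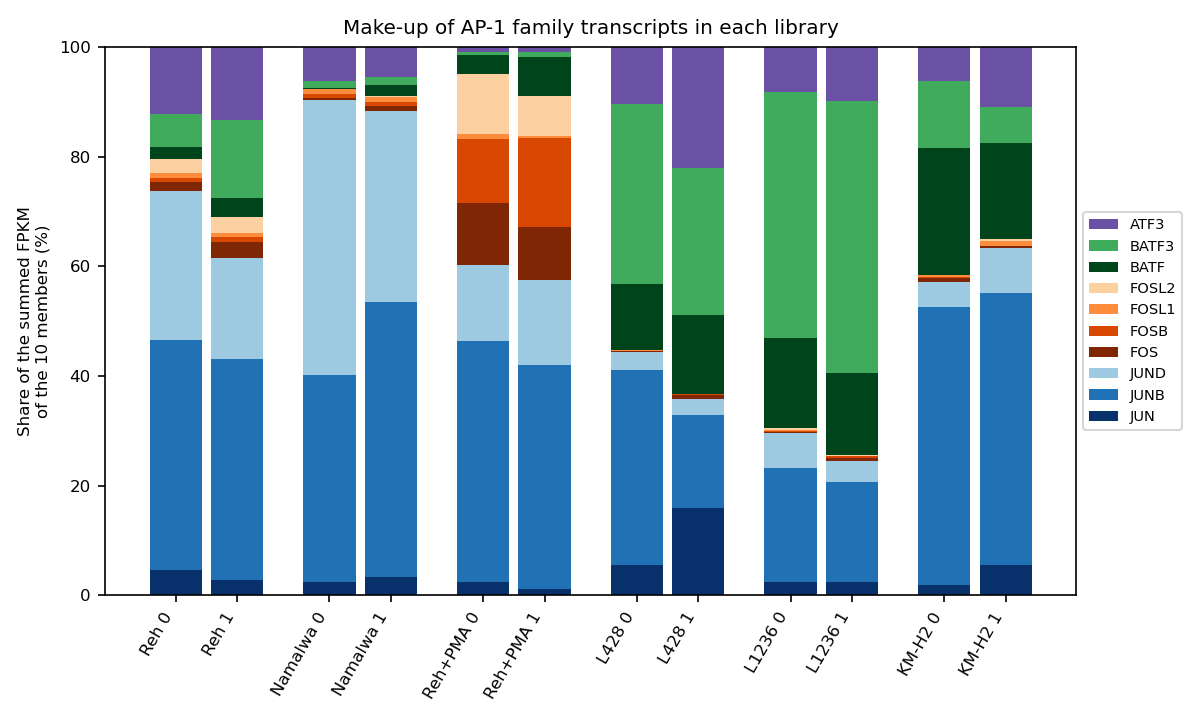
Share of each gene in the summed FPKM of the 10 AP-1 family genes (vertical axis, %), with 1 bar per library and blue for JUN-type, orange-brown for FOS-type, green for BATF-type genes and purple for ATF3. The FOS-type block is 33.6 to 34.8% in Reh+PMA and at most 1.62% in a cHL library.

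To ask which members respond to a protein kinase C stimulus, Reh+PMA was compared with untreated Reh. A gene passed the test where its adjusted p was under 0.05 and its difference at least 1 (2-fold) on the log2(FPKM + 1) scale, in limma with Benjamini–Hochberg adjustment over all 14679 genes. Differences below are on this scale with their standard error, and they understate the change of low genes. Of the 10 members 7 rose and 0 fell, whereas 10.5% of all genes tested rose and 11.8% fell. The median difference of the 10 was 2.99, against -0.03 over all genes tested.

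The immediate early genes of the FOS type had the widest contrast. FOSB, a partner of JUN proteins, was at 0.321 and 0.473 FPKM in Reh and at 65.8 and 74.7 FPKM in Reh+PMA. Its difference was 5.67 ± 0.37 (SE, adjusted p = 1.2e-05). In Namalwa it was at 0.437 and 0.265 FPKM, in L428 at 0.243 and 1.75, in L1236 at 1.70 and 3.51 and in KM-H2 at 0.880 and 0.677 FPKM, so that no other condition came near Reh+PMA. FOSB overlaps ERCC1, a DNA repair gene on the opposite strand, and whether strand was used in quantification is not given in the sources used here. ERCC1 itself rose by 2.73, from a mean of 51.9 to 383 FPKM, and without strand reads of the pair cannot be told apart.

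FOS, the founding member of its class, was at 0.873 and 1.31 FPKM in Reh and at 62.7 and 44.5 FPKM in Reh+PMA. It rose by 4.69 ± 0.57 (SE, adjusted p = 0.00045). FOSL2, which encodes FRA2, was at 1.36 and 1.27 FPKM in Reh and at 60.4 and 33.7 FPKM in Reh+PMA, a rise of 4.32 ± 0.29 (SE, adjusted p = 1.8e-05). The Reh and Reh+PMA libraries did not overlap for either gene. FOSL1, which encodes FRA1, stayed low, at 0.497 and 0.340 FPKM in Reh and 5.06 and 1.85 FPKM in Reh+PMA. Its rise of 1.55 ± 0.41 (SE, adjusted p = 0.019) did not pass in a fit of these 4 libraries alone (adjusted p = 0.083). Nor did it pass without Reh library 0 (1.63), Reh library 1 (1.47) or Reh+PMA library 0 (1.01).

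Among the JUN genes, JUNB was at 22.1 and 18.6 FPKM in Reh and reached 245 and 188 FPKM in Reh+PMA. Its rise of 3.34 ± 0.25 (SE, adjusted p = 3.1e-05) started from the highest untreated level of the family in Reh. JUND, often the steadiest JUN gene, went from 14.4 and 8.54 FPKM to 77.7 and 71.0 FPKM and rose by 2.64 ± 0.38 (SE, adjusted p = 0.0011). JUN was at 2.43 and 1.31 FPKM in Reh and at 13.7 and 5.51 FPKM in Reh+PMA. These JUN libraries did not overlap, but the difference of 1.79 ± 0.64 (SE, 95% interval 0.34 to 3.25) missed the threshold (adjusted p = 0.061). It passed with a pseudocount of 0.1 (adjusted p = 0.039) and without either L428 library, whose spread enters the shared error (adjusted p = 0.021 in both cases). JUNB overlaps HOOK2 on the opposite strand, which moved the other way (-1.26).

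BATF was the member that rose under PMA from nearly nothing without being of the JUN or FOS type, from 1.20 and 1.66 FPKM to 19.8 and 32.7 FPKM. Its difference was 3.45 ± 0.37 (SE, adjusted p = 0.00023). BATF3 was at 3.16 and 6.54 FPKM in Reh and at 3.06 and 3.66 FPKM in Reh+PMA, with a difference of -0.36 (95% interval -1.23 to 0.50, adjusted p = 0.53). ATF3 was at 6.42 and 6.15 FPKM in Reh and at 4.93 and 4.54 FPKM in Reh+PMA, with a difference of -0.35 (95% interval -1.35 to 0.66, adjusted p = 0.63). The intervals of BATF3 and ATF3 leave out a 2-fold rise.

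The proximal promoters of 5 members are printed as examples of the motifs searched, 4 of them from genes that rose under PMA and the fifth from JUN. The windows run from 250 bases before to 50 bases after the gene start as RefSeq gives it, and 8 of the 10 members matched an entry (FOSL1 and BATF3 did not). Each was located by an exact match in GRCh37 (hg19), the build of the study. JUNB lies at chr19:12902050-12902349 (plus strand), FOS at chr14:75745281-75745580 (plus strand), FOSB at chr19:45971004-45971303 (plus strand), FOSL2 at chr2:28615475-28615774 (plus strand) and JUN at chr1:59249670-59249969 (minus strand). Capitals mark TATAAA (searched on the strand of the gene), and, searched on both strands, TGANTCA (the phorbol ester response element), TGACGTCA (the cyclic AMP response element) and TGACATCA (a variant of it), which do not overlap in these windows.
JUNB: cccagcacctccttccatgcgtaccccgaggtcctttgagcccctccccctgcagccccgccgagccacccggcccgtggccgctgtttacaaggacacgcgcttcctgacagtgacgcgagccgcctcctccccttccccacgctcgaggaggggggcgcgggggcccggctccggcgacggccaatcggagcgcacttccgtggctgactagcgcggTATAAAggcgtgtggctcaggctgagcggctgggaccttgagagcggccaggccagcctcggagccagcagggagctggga
FOS: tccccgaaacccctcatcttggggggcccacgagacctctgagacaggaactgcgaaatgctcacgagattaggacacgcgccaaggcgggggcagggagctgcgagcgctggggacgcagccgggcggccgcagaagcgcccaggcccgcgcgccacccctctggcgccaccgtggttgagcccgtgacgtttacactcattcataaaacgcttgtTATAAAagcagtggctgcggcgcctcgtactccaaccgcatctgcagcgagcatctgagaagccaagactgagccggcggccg
FOSB: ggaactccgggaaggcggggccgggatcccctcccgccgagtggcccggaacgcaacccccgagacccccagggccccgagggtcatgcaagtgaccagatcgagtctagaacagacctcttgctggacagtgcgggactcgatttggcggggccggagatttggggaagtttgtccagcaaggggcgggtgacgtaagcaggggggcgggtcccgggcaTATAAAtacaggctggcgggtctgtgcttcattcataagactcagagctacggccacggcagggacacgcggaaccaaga
FOSL2: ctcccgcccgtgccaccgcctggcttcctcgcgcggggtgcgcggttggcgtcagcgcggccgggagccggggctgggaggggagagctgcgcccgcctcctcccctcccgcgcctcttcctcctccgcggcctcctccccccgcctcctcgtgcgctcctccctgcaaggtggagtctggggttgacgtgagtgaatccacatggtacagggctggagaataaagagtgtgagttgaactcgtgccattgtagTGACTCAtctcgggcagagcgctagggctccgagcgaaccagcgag
JUN: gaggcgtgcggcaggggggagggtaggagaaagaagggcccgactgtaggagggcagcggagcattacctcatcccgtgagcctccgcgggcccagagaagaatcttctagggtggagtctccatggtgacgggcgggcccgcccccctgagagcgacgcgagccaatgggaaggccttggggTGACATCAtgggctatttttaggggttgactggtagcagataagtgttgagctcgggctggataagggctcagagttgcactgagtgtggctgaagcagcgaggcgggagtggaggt

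JUNB, FOS and FOSB shared a TATAAA that starts at position -31, -33 and -30 from the gene start, within a window 40 to 20 bases before it that holds TATAAA in 2.26% of 34943 promoters. FOSL2 held TGACTCA at positions 5 to 11 (TGANTCA occurs in 7.72% of promoters), JUN held TGACATCA at -67 to -60 (2.61%), and JUND, not printed, held TGACGTCA at -200 to -193 (1.84%). ATF3, not printed, has entries for 2 starts, and held TGACATCA at -123 to -116 in the window at chr1:212738499-212738798 and TATAAA at -230 to -225 in the window at chr1:212788110-212788409. The BATF window held none of these motifs. None of the 8 members held a CArG box (1.30% of promoters) or an NF-κB motif (11.3%). A match describes letters only, and the lack of one is limited to this window.

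To ask which members distinguish cHL from B-cell controls, the 3 cHL lines were compared with Namalwa and Reh with the line as the unit, since 2 libraries of a line are not replicates of the disease. All 10 members had a positive difference, with a median of 2.13 against 0.02 over all genes tested. BATF and JUNB passed the test, 2 of 10 members, where 0.32% of all genes passed as higher, and 0 members passed as lower (0.225%). The difference was 5.80 ± 0.35 (SE, adjusted p = 0.0090) for BATF and 3.06 ± 0.34 (SE, adjusted p = 0.043) for JUNB. With 5 lines the calls were fragile. JUNB was lost without any 1 of the 5 lines (adjusted p = 0.11 to 0.19), and BATF without L428 (0.13), L1236 (0.14), KM-H2 (0.11) or Reh (0.083). JUNB was also lost without KM-H2 library 1 (0.061), either L1236 library (0.056 and 0.057) or L428 library 0 (0.075) and with no filter on low values (0.12), while the differences stayed at 2.81 to 3.23 for JUNB and 5.44 to 6.16 for BATF over all omissions of a line or a library.

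ATF3, BATF3 and JUN differed as widely but did not pass at the level of lines, with 3.65 ± 0.48 (SE, adjusted p = 0.058), 5.62 ± 0.97 (SE, adjusted p = 0.11) and 3.42 ± 0.65 (SE, adjusted p = 0.13). Using library 0 of each line alone, BATF3 (5.88, adjusted p = 0.029) and ATF3 (3.09, adjusted p = 0.037) passed, and using library 1 alone neither did (adjusted p = 0.13 and 0.05004). ATF3 also passed with a minimum of 5 FPKM (adjusted p = 0.038), with equal medians (0.049) or without either Reh+PMA library, which changes the genes tested (0.042 and 0.041). The remaining members were not called, with 0.87 for JUND, 1.19 for FOS, 0.72 for FOSB, 0.55 for FOSL1 and 0.17 for FOSL2.

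Each cHL line was then compared with the mean of Namalwa and Reh in a fit of all 12 libraries, in which p-values measure the spread between duplicates of a line, which may be technical. These 3 comparisons share their controls, and the Reh libraries also serve the PMA comparison. In L428 5 members rose (16.2% of all genes rose and 13.8% fell), in L1236 7 (15.7 and 13.3%) and in KM-H2 6 (16.8 and 13.5%), and 0 members fell in each of them. JUN, JUNB, BATF, BATF3 and ATF3 rose in each line's own comparison. JUND and FOSB were added in L1236 and FOSL1 in KM-H2.

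**Figure D3:**
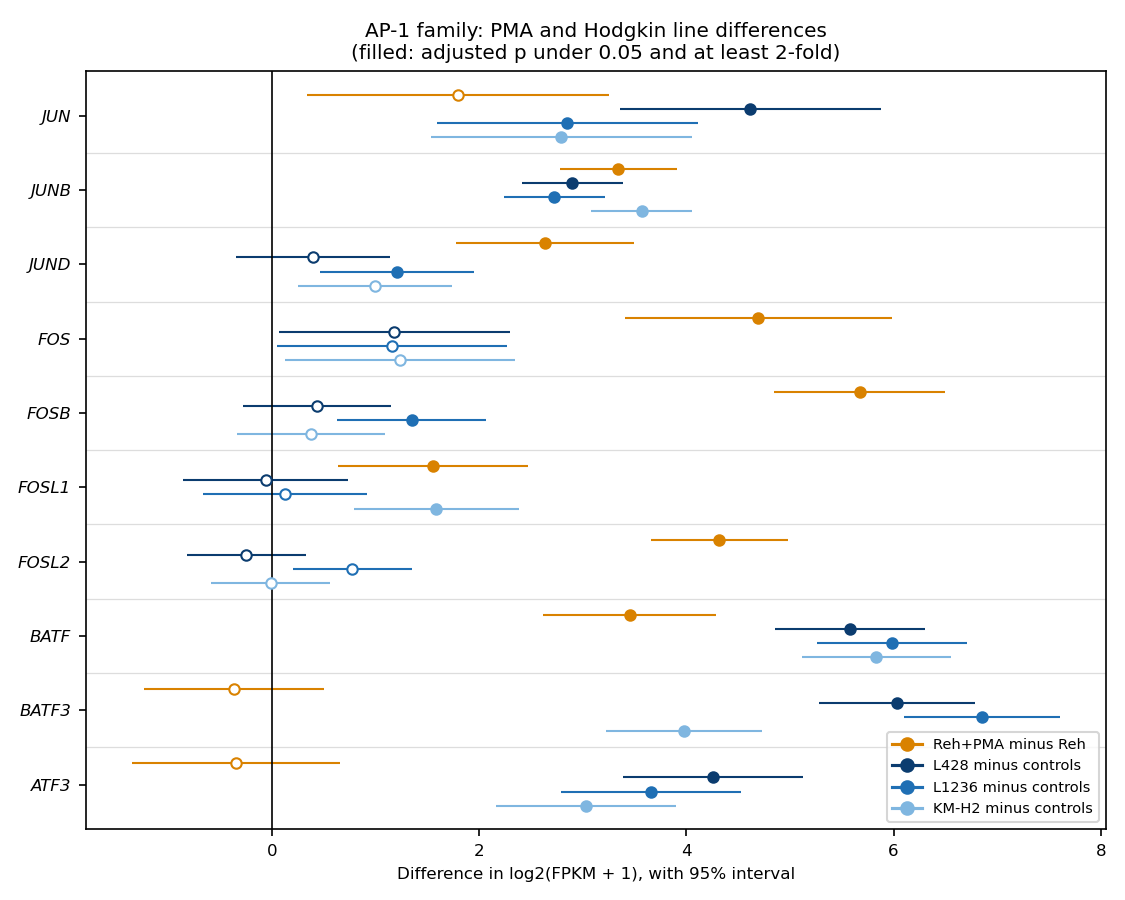
Difference in log2(FPKM + 1) for each member (horizontal axis, with 95% intervals from limma), for Reh+PMA minus Reh (orange) and for each cHL line minus the mean of Namalwa and Reh (blues). Filled points passed the test, and FOS, FOSB, FOSL2 and JUND lie farther right in orange while BATF3 and ATF3 lie farther right in blue. FOSL1 is alike in Reh+PMA (1.55) and KM-H2 (1.58), and JUND (1.21) and FOSB (1.35) also passed in L1236.

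BATF was high in all 3 cHL lines. It was at 69.4 and 114 FPKM in L428, at 118 and 119 FPKM in L1236 and at 134 and 84.6 FPKM in KM-H2, against 0.133 and 0.913 FPKM in Namalwa and 1.20 and 1.66 FPKM in Reh. The lowest cHL library was thus far above the highest control library, and Reh+PMA at 19.8 and 32.7 FPKM lay between them without overlap. The differences were 5.58 ± 0.32 in L428, 5.99 ± 0.32 in L1236 and 5.83 ± 0.32 in KM-H2 (SE, adjusted p of at most 1.3e-06). Of the cHL lines, KM-H2 overlapped both L428 and L1236, while both L1236 libraries were above both L428 libraries.

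BATF3, a close relative of BATF known for its role in dendritic cells, was at 189 and 215 FPKM in L428, 324 and 395 FPKM in L1236 and 72.0 and 31.9 FPKM in KM-H2. In Namalwa it was at 0.884 and 0.577 FPKM and in Reh at 3.16 and 6.54 FPKM. L1236 library 1 held the highest FPKM of any member in any library. The order was L1236, L428, KM-H2, Reh, Reh+PMA and Namalwa, and of these neighbours Reh and Reh+PMA alone overlapped. The differences from controls were 6.85 ± 0.33 in L1236, 6.03 ± 0.33 in L428 and 3.98 ± 0.33 in KM-H2 (SE, adjusted p of at most 1.3e-05). KM-H2 was lower than L1236 by a log2 difference of -2.87 (adjusted p = 0.00035) and lower than L428 by -2.05 (adjusted p = 0.0028), but the latter did not pass in a fit of these 2 lines alone (adjusted p = 0.077).

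ATF3 was at 59.7 and 177 FPKM in L428, 58.6 and 78.6 FPKM in L1236 and 35.9 and 52.7 FPKM in KM-H2. It was at 3.88 and 2.41 FPKM in Namalwa, at 6.42 and 6.15 FPKM in Reh and at 4.93 and 4.54 FPKM in Reh+PMA. Every cHL library was above every other library. The differences from controls were 4.25 ± 0.38, 3.66 ± 0.38 and 3.03 ± 0.38 (SE, adjusted p of at most 0.00019) in L428, L1236 and KM-H2. Without L428 library 1 the ATF3 difference between L428 and L1236 changed from 0.59 to -0.18, and without L428 library 0 it was 1.37, so that the first rank of L428 rests on library 1.

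JUN was at 31.6 and 128 FPKM in L428, 16.7 and 19.6 FPKM in L1236, and 11.2 and 26.5 FPKM in KM-H2, and it was at 1.52 and 1.47 FPKM in Namalwa. All cHL libraries were above all 4 control libraries, whose highest was Reh at 2.43 FPKM. The differences were 4.61 ± 0.56, 2.85 ± 0.56 and 2.79 ± 0.56 (SE, adjusted p of at most 0.0029) in L428, L1236 and KM-H2. L428 ranked first, apart from KM-H2 and L1236, which overlapped. The difference of 1.76 between L428 and L1236 did not pass (adjusted p = 0.068), and it was 0.77 without L428 library 1 and 2.75 (adjusted p = 0.010) without L428 library 0.

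JUNB had the highest level of the JUN genes in each cHL line, with 205 and 136 FPKM in L428, 150.5 and 145 FPKM in L1236 and 295 and 239 FPKM in KM-H2. Namalwa had 23.9 and 21.8 FPKM, close to Reh. The differences from controls were 2.90 ± 0.22, 2.72 ± 0.22 and 3.57 ± 0.22 (SE, adjusted p of at most 8.9e-06) in L428, L1236 and KM-H2. In order of mean level KM-H2, Reh+PMA, L428 and L1236 each overlapped the next, and L1236 was apart from Namalwa. KM-H2 exceeded L1236 by 0.84 (adjusted p = 0.026), which is below the 2-fold minimum.

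JUND was at 18.97 and 23.1 FPKM in L428, 45.7 and 30.7 FPKM in L1236, 26.4 and 39.3 FPKM in KM-H2 and 31.7 and 15.1 FPKM in Namalwa, and lowest in Reh at 14.4 and 8.54 FPKM. Below Reh+PMA the order L1236, KM-H2, Namalwa and L428 overlapped from each to the next, and Reh was apart. Its rise in L1236 (1.21 ± 0.33, SE, adjusted p = 0.015) did not pass without L1236 library 0 (0.93, adjusted p = 0.12), fell below 2-fold without Namalwa library 1 (0.95) and was lost in a fit of the compared conditions alone (adjusted p = 0.064). In KM-H2 the difference was 1.00 (0.9959 before rounding, adjusted p = 0.033), just under the 2-fold minimum. It passed with a pseudocount of 0.1 (1.04) and without KM-H2 library 0 (1.27), Namalwa library 0 (1.25) or Reh library 0 (1.17).

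The FOS-type genes were low in the cHL lines. FOS was at 1.03 and 5.84 FPKM in L428, 1.75 and 3.91 in L1236 and 4.66 and 1.65 in KM-H2, and at 0.205 and 0.408 in Namalwa. Its differences of 1.18, 1.16 and 1.24 did not pass (adjusted p = 0.078, 0.084 and 0.066), but each passed with a pseudocount of 0.1 (1.93, 2.00 and 2.09), and in L1236 and KM-H2 without either L428 library or in fits of the compared conditions alone (adjusted p = 0.025 and 0.040). Over the omissions of a library the FOS difference in KM-H2 ran from 0.69 to 1.78. In L428 the FOS difference was 2.06 without library 0, which passed (adjusted p = 0.0086), and 0.30 without library 1. FOSL2 was at 0.306 and 0.272 FPKM in L428, 1.82 and 1.44 FPKM in L1236 and 0.208 and 0.913 FPKM in KM-H2. It was listed at 0 in Namalwa library 0 and at 0.0303 FPKM in library 1. Its difference in L1236 was 0.77 (adjusted p = 0.034), under the 2-fold minimum, and it passed with a pseudocount of 0.1 (2.10, adjusted p = 0.0057). FOSB rose in L1236 by 1.35 ± 0.32 (SE, adjusted p = 0.0072), and this was 0.98 without L1236 library 1 (adjusted p = 0.085). In L428 FOSB differed by 0.43, and it passed without L428 library 0 (1.01, adjusted p = 0.024). FOSL1 was at 2.48 and 4.57 FPKM in KM-H2 and at most 1.20 FPKM in the L428 and L1236 libraries, and rose in KM-H2 by 1.58 ± 0.35 (SE, adjusted p = 0.0051), or by 1.25 without KM-H2 library 1 (adjusted p = 0.057).

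Reh+PMA was also tested against the mean of the 3 cHL lines. The p-values measure the spread between duplicates, not between lines, and PMA and the Reh line cannot be told apart in this comparison, since BATF3 (4.85 FPKM) and ATF3 (6.29 FPKM) were already low in untreated Reh. JUND (1.31), FOS (3.84), FOSB (4.98) and FOSL2 (4.74) were higher in Reh+PMA, 4 of 10 members where 15.8% of all genes were higher. JUN (-1.54), BATF (-1.99), ATF3 (-3.58) and BATF3 (-5.14) were lower, 4 of 10 where 19.1% of all genes were lower, with the median of all genes at -0.11. Adjusted p was at most 0.0058 for these genes except JUN (0.031). JUN did not pass without KM-H2 library 1 (0.056), L1236 library 1 (0.051) or Reh+PMA library 1 (0.28), in a fit of the compared conditions alone (0.069) or with no filter on low values (0.055), and JUND did not without Reh+PMA library 0 (0.054). JUNB differed by 0.20 (95% interval -0.26 to 0.66, adjusted p = 0.43), an interval that leaves out a 2-fold difference either way, and FOSL1 by 0.95 (adjusted p = 0.034), under the 2-fold minimum, and passed with a pseudocount of 0.1 (1.67, adjusted p = 0.047), with equal medians (1.05, adjusted p = 0.026) or when KM-H2 library 1, L1236 library 0, L428 library 0 or Reh+PMA library 1 was left out. Its range over the omissions of a library was 0.41 to 1.496.

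Between the untreated controls, 2 members were lower in Namalwa than in Reh (11.5% of all genes were lower) and 0 were higher (7.5%). FOSL2 differed by -1.19 ± 0.29 (SE, adjusted p = 0.016) and BATF3 by -1.70 ± 0.38 (SE, adjusted p = 0.010). FOSL2 lost its call without any 1 of the 4 libraries compared (adjusted p = 0.069 to 0.091), and BATF3 without Namalwa library 1 (0.065) or Reh library 1 (0.092) or in a fit of these 4 libraries alone (0.063). JUND had the largest positive difference of the 10 in Namalwa, 0.93 (adjusted p = 0.12), and it ran from 0.42 to 1.43 over the omissions of a library.

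Between the cHL lines, the counts of members that passed lay near the shares of all genes. FOSL1 was higher in KM-H2 than in L428 by 1.65 (adjusted p = 0.011) and than in L1236 by 1.46 (adjusted p = 0.020), and FOSL2 was lower in L428 than in L1236 by a log2 difference of -1.02 (adjusted p = 0.027). Counted with BATF3, 1 member was higher and 1 lower in KM-H2 against L428 (13.7 and 12.9% of all genes), 1 and 1 in KM-H2 against L1236 (13.5 and 13.2%), and 0 higher and 1 lower in L428 against L1236 (11 and 10.9%). The FOSL1 calls did not pass without KM-H2 library 1 (adjusted p = 0.074 against L428 and 0.12 against L1236), and the FOSL2 call did not pass without any 1 of the 4 libraries compared (0.067 to 0.13). FOSL1 against L428 was also lost without L428 library 1 (0.071), and against L1236 without L1236 library 1 (0.14). In fits of the compared lines alone neither FOSL1 call passed (0.057 and 0.12). JUN and ATF3 were lower in KM-H2 than in L428 by log2 differences of -1.82 and -1.22 that did not pass (adjusted p = 0.053 and 0.058). Over the omissions of a library JUN ran from -2.81 to -0.83 and ATF3 from -2.002 to -0.45, and JUN passed with equal medians (adjusted p = 0.0498).

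On the genome, some members are neighbours. On GRCh37, ATF3 spans chr1:212738676-212794119 on the plus strand and BATF3 chr1:212859759-212873182 on the minus strand, with 65.6 kb between them. Over the 6 condition means their log2 levels correlated with r = 0.98, a description over points that share libraries. The flanking genes had smaller differences. NENF differed by 0.20, 0.98 and 1.09 in L428, L1236 and KM-H2 against controls and passed in KM-H2, NSL1 differed by 0.42, 0.54 and 0.26, and TATDN3 by 0.54, 0.81 and 0.77. FOS (chr14:75745529-75748933) and BATF (chr14:75988798-76013336) lie 239.9 kb apart on the plus strand, and both rose under PMA, while in the cHL lines BATF passed and FOS (1.18, 1.16 and 1.24) did not at the main settings. Their r over the 6 condition means was 0.36, and FOSB and FOSL2, on different chromosomes, had an r of 0.98. JDP2, which encodes an AP-1 inhibitor, lies between them, and it was at 1.53 FPKM in Reh, 0.627 in Reh+PMA, 1.98 in Namalwa, 0.278 in L428, 0.0852 in L1236 and 9.94 in KM-H2. It passed as higher in KM-H2 (2.02) and as lower in L428 (-1.11) and L1236 (-1.32). Of the flanking genes, FLVCR2 beside BATF rose in KM-H2 (3.05) and TTLL5 in L1236 (1.123), and TMED10 beside FOS had differences of -0.47 in L428, -0.14 in L1236 and 0.46 in KM-H2. The other members are JUN (chr1:59242517-59249720), JUNB (chr19:12902300-12904129), JUND (chr19:18390504-18392432), FOSB (chr19:45971253-45978437), FOSL1 (chr11:65659520-65668044) and FOSL2 (chr2:28615315-28640184).

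Genes whose condition means were most like a member's were named by Pearson r over the 6 means of log2(FPKM + 1), the top 3 among all tested genes. FOSB was followed by SERTAD1 (r = 1.00, 0.9994 before rounding), the early response factor EGR1 (0.997) and INHBA (0.997), FOS by SCARNA7 (0.994), RTN4 (0.983) and INSL3 (0.982), and FOSL2 by SNX12 (0.998), TUBA1A (0.995) and WDR13 (0.993). BATF was followed by AHNAK (0.998), CAST (0.995) and PDZD11 (0.994), BATF3 by LINC01137 (0.996), CSF1 (0.995) and ARNTL2 (0.993), and ATF3 by TTLL3 (0.9996), LOC100288846 (0.993) and FGF13 (0.992). CSF1, the ligand of the receptor CSF1R, averaged 42.4 FPKM in L1236, 39.5 in L428, 8.10 in KM-H2, 1.34 in Reh, 1.116 in Reh+PMA and 0.0161 in Namalwa, the order of BATF3. EGR1 averaged 69.2 FPKM in Reh+PMA and at most 1.49 elsewhere, and AHNAK 37.4 to 58.6 in the cHL lines, 13.0 in Reh+PMA and at most 0.498 in the untreated controls. JUN was followed by SPPL2A (0.993), KCTD11 (0.990) and SNX11 (0.990), JUNB by HARBI1 (0.988), TFG (0.986) and PLOD3 (0.986), JUND by NFYC (0.981), BRK1 (0.978) and RALGAPB (0.978), and FOSL1 by LINC00964 (0.995), SLC12A8 (0.995) and SNORD116-8 (0.993). These are the highest of 14679 genes over 6 points that share libraries, and they are a description.

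Genes known as AP-1 targets were read from a list of 31, of which 30 symbols were in the table and 25 were tested. The list was chosen with earlier results of these data known, and TNFRSF8 and CD274 are also among the Hodgkin markers. The counts therefore describe the list only. In Reh+PMA 14 rose and 0 fell (10.5 and 11.8% of all genes), with a list median of 1.73 against -0.03. The widest were EMP1 (8.02), a membrane protein gene at 0.117 FPKM in Reh and 342 in Reh+PMA, PLAU (6.26), which encodes urokinase, the growth factor gene HBEGF (5.40) and the chemokine gene CXCL8 (5.06). In the cHL lines 15 rose and 2 fell in L428, 13 and 3 in L1236 and 14 and 2 in KM-H2 (16.2 and 13.8%, 15.7 and 13.3%, and 16.8 and 13.5% of all genes), with list medians of 1.58, 1.62 and 1.20. The filter kept MMP10 through Reh+PMA alone (3.30 FPKM, listed at 0 elsewhere) and CCL2 through L1236 alone (555 FPKM, at most 0.0569 elsewhere). MMP1, MMP3, IL2, PDPN and FASLG were too low to be tested. The counts and medians thus lean towards genes high in some condition, and their excess over all genes was not tested.

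Among the targets with wide differences in the cHL lines, LGALS1, which encodes galectin-1, differed by 5.92, 4.58 and 6.49 in L428, L1236 and KM-H2, and VIM, the intermediate filament gene, by 5.43, 4.38 and 5.34. VIM was at a mean of 0.163 FPKM in Namalwa and 446 in Reh, against 476 in L1236, 922 in KM-H2 and 1077 in L428, so that L1236 was close to Reh, and KM-H2 and L428 were above both controls. Both also rose in Reh+PMA, by 3.24 and 1.71. TNFRSF8 differed by 5.33, 4.32 and 4.30 in the lines and was at -0.06 in the PMA comparison and did not pass there. CSF2 was wide in L428 (4.88) and L1236 (6.16), and in L1236 CCL2 (9.12), IL6 (5.70) and CD274 (4.83), which encodes PD-L1, stood out, with CCL2 at 555 FPKM in L1236 and listed at 0 in L428 and KM-H2. TIMP1 (4.92) was among the widest in KM-H2. CD69, an activation marker, rose by 4.08 in Reh+PMA and fell in L428, L1236 and KM-H2 (-1.62, -2.18 and -2.07), as did HBEGF (-1.06, -1.42 and -1.53). PLAUR fell in L1236 (-1.29). The controls themselves differed in 6 of these targets, all lower in Namalwa than in Reh, namely VIM (-8.59), TNF (-6.02), LGALS1 (-3.42), TIMP1 (-3.01), MT2A (-2.99) and PLAUR (-2.80), so that their differences from the control mean depend on which control is used.

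**Figure D4:**
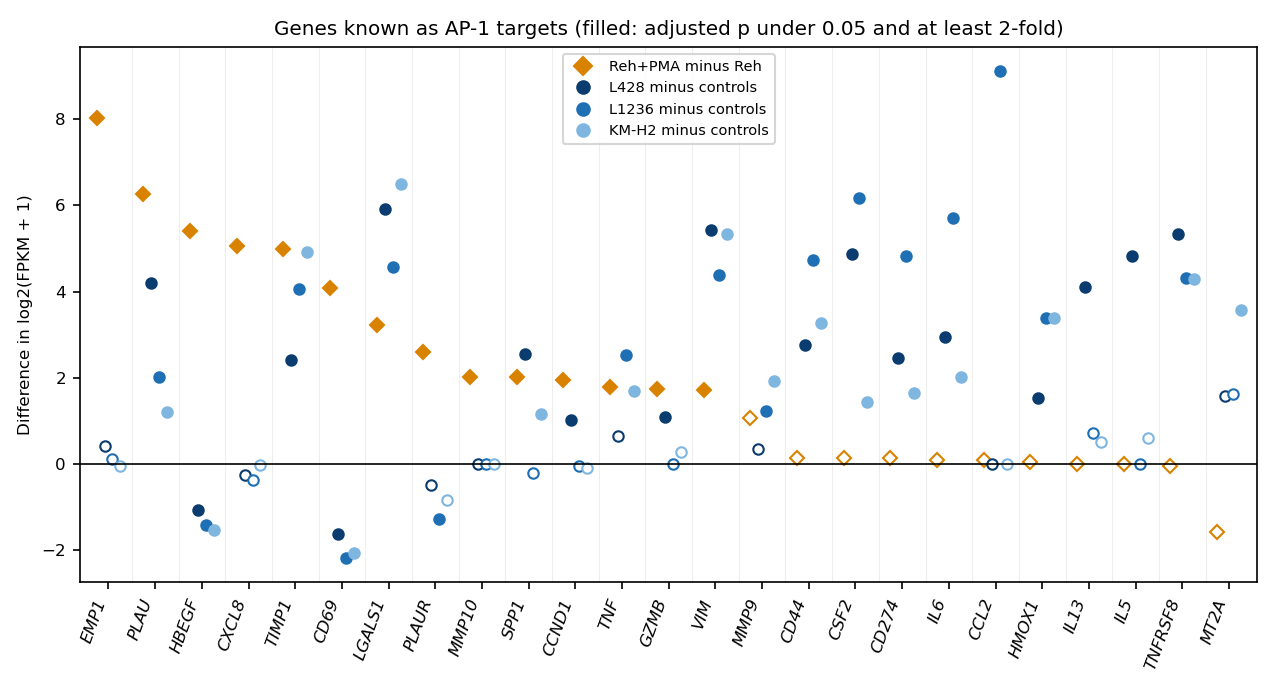
Difference in log2(FPKM + 1) (vertical axis) for the 25 tested genes of the AP-1 target list, ordered by their PMA difference, for Reh+PMA minus Reh (orange diamonds) and each cHL line minus the mean of Namalwa and Reh (blue circles), with filled points for genes that passed the test. EMP1, HBEGF, CXCL8 and CD69 are high in orange alone, while LGALS1 and VIM are high in both colours and TNFRSF8 in blue alone.

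Of 22 tested kinases and other regulators above AP-1, 3 rose and 2 fell in Reh+PMA, near the 10.5 and 11.8% of all genes. MAP3K8, a kinase that feeds the ERK cascade, rose by 1.90 there and by 4.09, 2.77 and 2.23 in L428, L1236 and KM-H2, and MAP2K1, which encodes MEK1, by 1.91 and by 1.43, 1.05 and 1.03. RPS6KA3, which encodes RSK2, rose by 1.55 in Reh+PMA. DUSP1, a phosphatase that switches off MAP kinases, fell by 2.54 there and MYC by 2.14. In the lines 4 rose and 2 fell in L428 (16.2 and 13.8% of all genes), 5 and 2 in L1236 (15.7 and 13.3%) and 6 and 2 in KM-H2 (16.8 and 13.5%). The stress kinases MAP3K5 (2.28) and MAPK8 (1.26) rose in L428, the ERK gene MAPK3 (2.202) in L1236 and the neural JNK gene MAPK10 (2.94) in KM-H2. The list medians were 0.22 under PMA and -0.04, 0.07 and 0.45 in the lines.

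Of 22 other basic leucine zipper genes tested, 6 rose and 1 fell in Reh+PMA (10.5 and 11.8% of all genes), where MAF (2.14), MAFF (1.81), CREM (1.70) and BACH1 (1.33) led and BACH2, a B-cell repressor, fell by 2.86. In L428 5 rose and 2 fell (16.2 and 13.8% of all genes), in L1236 3 and 2 (15.7 and 13.3%), and in KM-H2 2 and 3 (16.8 and 13.5%), so that the counts in L1236 and KM-H2 lay near those shares. BACH2 fell in L428, L1236 and KM-H2 (-3.41, -5.40 and -5.36). NFIL3 rose in L428 (3.26) and L1236 (1.44), the stress gene DDIT3 in L428 (2.24), ATF5 in L1236 (1.99) and CREB3 in KM-H2 (2.21). In L1236 NFIL3 averaged 22.9 FPKM, close to Reh (18.3), while Namalwa was at 3.07, so that its difference there depends on which control is used. The list medians were 0.17 under PMA and 0.10, 0.28 and -0.12 in the lines.

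Partners that bind beside AP-1 (13 tested) gave 2 higher and 1 lower in Reh+PMA (10.5 and 11.8% of all genes), 3 and 4 in L428 (16.2 and 13.8%), 2 and 5 in L1236 (15.7 and 13.3%) and 2 and 7 in KM-H2 (16.8 and 13.5%), with list medians of 0.25, -0.31, -0.32 and -1.28. IRF4, the partner of BATF on composite sites, averaged 141 FPKM in L428, 192 in L1236 and 104 in KM-H2, 26.4 in Namalwa, 0.883 in Reh and 0.861 in Reh+PMA. It rose by 4.31, 4.76 and 3.82 in the cHL lines and was at -0.01 in the PMA comparison, where BATF rose. IRF8, the other such partner, averaged 17.6 FPKM in L428, 0.941 in L1236 and 0.139 in KM-H2, against 121 in Namalwa, 3.26 in Reh and 1.48 in Reh+PMA. NFATC1, a calcium-regulated partner of AP-1, rose by 2.32 under PMA and STAT3 by 1.73. SPI1 fell by 4.87 in each cHL line, where it was listed at 0.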

How the data were processed

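Total RNA was isolated on columns with DNase digestion, depleted of ribosomal RNA, and sequenced from stranded libraries. Per the submitters' processing notes, the authors aligned reads to hg19 with TopHat2 (2.0.11) and deposited FPKM values from Cuffnorm (2.2.1) in 1 table. The annotation and strand setting are not given in the sources used here. The table holds no counts, so depth and counting error are unknown, and the number of libraries limits precision. Columns were assigned to conditions by name. Their suffixes 0 and 1 could not be matched to the replicate numbers of the labels, and nothing says that duplicates were separate cultures.

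Values were tested as log2(FPKM + 1) with limma (3.58.1, R 4.3.3, trend option) for genes of at least 1 FPKM in at least 2 libraries, with Benjamini–Hochberg adjustment over all tested genes. The fit held 6 condition means. The cHL lines were compared with control lines on the 5 line means. The script was tested on simulated data. Alternatives changed the pseudocount, filter, scaling, minimum difference, libraries and block, and left out each library. The members, gene lists and the rule for naming genes (the listed members, list genes with the widest called differences, and the top 3 by correlation) were chosen with earlier results of these data known.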

Additional observations from a re-analysis of the deposited data

Results flagged for a closer look

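Differences between the cHL lines under the same comparison, tested directly in limma, drew attention to 3 members. BATF3 was lower in KM-H2 than in L1236 by a log2 difference of -2.87 (adjusted p = 0.00035) and than in L428 by -2.05 (adjusted p = 0.0028). FOSL1 was higher in KM-H2 than in L428 by 1.65 (adjusted p = 0.011) and than in L1236 by 1.46 (adjusted p = 0.020). FOSL2 was lower in L428 than in L1236 by a log2 difference of -1.02 (adjusted p = 0.027). Groups of 2 libraries are too small for a test of single outlying libraries.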

How the results depend on the processing

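The precision is limited by 2 libraries a condition and 5 lines. For Hodgkin against control lines, 80 genes and 2 members passed. With no filter on low values these were 11 and 1, with libraries as replicates 3614 and 6, with library 1 alone (chosen after seeing the data) 125 genes, and with library 0 alone (likewise) 4 members. Leaving out a line or library gave 0 to 183 genes and 0 to 3 members higher. It gave 1968 to 3395 genes for PMA (main 3265), 0 to 1 members higher and 1 to 2 lower for KM-H2 against L1236, 0 to 1 and 1 to 3 for KM-H2 against L428, 0 to 2 and 0 to 1 for L428 against L1236, and 0 to 1 and 0 to 2 for Namalwa against Reh. Without a minimum difference 6882, 6662 and 6920 genes passed in L428, L1236 and KM-H2 (main 4404, 4251 and 4456), 8522 for Reh+PMA against the cHL lines (main 5124) and 2 members higher for KM-H2 against L1236. In fits of the compared conditions alone, 2052 genes passed for L428 against L1236 and 1972 for KM-H2 against L428 (main 3216 and 3904), with 0 members higher and 0 lower in the latter, 0 higher for KM-H2 against L1236 and 1 lower for Namalwa. A minimum of 5 FPKM gave 0 members higher for KM-H2 against either line. Equal medians gave 0 lower for L428 against L1236 and 2 for KM-H2 against L428, and a pseudocount of 0.1 gave 2 lower for KM-H2 against L1236. The cause was not tested.

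Signs turned among differences that had not passed. FOSL1 in L1236 was -3e-04 with equal medians, and FOSL2 in KM-H2 was 0.47 with a pseudocount of 0.1. Without single libraries or lines, ranges crossed 0 for BATF3 under PMA (-0.79 to 0.0644), FOSL2 in Hodgkin against control lines (-0.42 to 0.77), FOSB and FOSL1 in L428 (-0.14 to 1.01 and -0.24 to 0.12), FOSL1 in L1236 (-0.33 to 0.58), FOSL2 in KM-H2 (-0.34 to 0.32), FOSL1, ATF3 and JUNB in L428 against L1236 (-0.65 to 0.27, -0.18 to 1.37 and -0.12 to 0.47), FOSL2 in KM-H2 against L428 (-0.0941 to 0.57) and JUN in KM-H2 against L1236 (-0.64 to 0.53).

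The suffixes paired the libraries in no way the labels state, and deviations of same-numbered libraries correlated above 0.1 in 6 of 15 pairs of conditions (-0.045 to 0.68). With a replicate block 3456 genes passed for PMA, 3643 genes and 6 members for libraries as replicates, and no member call of the fit of 6 condition means changed.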
